A study of Mus musculus with 10 samples.

Results

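The 3 Cited genes measured in these libraries and the coactivators their proteins bind or share were examined in hematopoietic stem cells (HSCs) with and without *Cited2*. The members are the rows of the count table whose symbol is *Cited1*, *Cited2*, *Cited4*, *Ep300*, *Crebbp*, *Ncoa1*, *Ncoa2* or *Ncoa3*, 8 of 26146 genes. The question was whether the paralogs or the coactivator partners shift when *Cited2* is deleted. RNA was sequenced from LSKCD48-CD150+ HSCs, a bone marrow population sorted by surface markers, of 5 control (CTL) and 5 knockout (CKO) C57BL/6J mice aged 8 to 12 weeks. CTL mice carried floxed *Cited2* alleles (*Cited2* fl/fl) and no Cre. CKO mice carried the same floxed alleles with *Vav-iCre*, which acts across the hematopoietic system, so deletion was not limited to the sorted cells. Libraries are named by genotype and number.

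CITED proteins do not bind DNA themselves. They attach through an acidic C-terminal domain to the CH1 (TAZ1) domain of CBP, encoded by *Crebbp*, and p300, encoded by *Ep300*, a pair of closely related acetyltransferases that many transcription factors recruit. CITED2 takes the surface that HIF-1alpha uses and so limits HIF-driven transcription, and it also brings CBP and p300 to factors such as TFAP2 proteins. NCOA1, NCOA2 and NCOA3 are the p160 coactivators, which nuclear receptors recruit and which in turn bind CBP and p300.

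The upstream sequences of the pair of Cited genes that were detected in every library are shown because *Cited2* is itself a known target of HIF-1. Each runs from 250 bases before the RefSeq start to 50 bases after it (GRCm38.p6, plus strand), at chr10:17722978-17723277 for *Cited2* and chr4:120666313-120666612 for *Cited4*. Capitals mark the letters CACGTG, which hold ACGTG, the core of the hypoxia response element, on each strand.
Cited2: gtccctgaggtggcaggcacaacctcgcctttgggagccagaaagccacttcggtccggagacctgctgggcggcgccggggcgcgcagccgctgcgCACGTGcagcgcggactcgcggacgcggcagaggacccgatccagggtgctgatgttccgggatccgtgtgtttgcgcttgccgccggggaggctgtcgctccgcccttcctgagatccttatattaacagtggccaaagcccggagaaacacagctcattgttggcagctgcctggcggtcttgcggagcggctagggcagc
Cited4: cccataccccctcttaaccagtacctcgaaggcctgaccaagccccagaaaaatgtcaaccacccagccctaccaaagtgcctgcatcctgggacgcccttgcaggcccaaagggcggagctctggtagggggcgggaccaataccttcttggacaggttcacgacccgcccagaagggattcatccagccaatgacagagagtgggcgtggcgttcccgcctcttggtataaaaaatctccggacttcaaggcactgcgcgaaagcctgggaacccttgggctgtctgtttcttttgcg
The *Cited2* window held CACGTG 153 bases before the start, and the *Cited4* window held ACGTG on neither strand. On either strand ACGTG was found in 6447 of 32851 promoter windows of the same length (19.6%) and CACGTG in 2349 (7.15%). The *Cited4* window held TATAAA 22 bases before the start, letters that 13.6% of windows held, and the *Cited2* window did not. G and C made up 66.7% of the *Cited2* window and 58% of that of *Cited4*, against a median of 52.7%. The letters describe these windows and do not show that a factor binds there.

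Counts per gene summed to between 3058690 and 4548795 per CTL library and between 3500215 and 4315029 per CKO library. All 12 HSC markers of a hand-written list had counts in every library. Their summed expression was 2458 to 2746 CPM (counts scaled to 1000000 per library after TMM normalization) in CTL and 2228 to 2520 CPM in CKO. Of 24 markers of other blood cells 23 were in the table, and they summed to 661 to 940 CPM in CTL and 687 to 834 CPM in CKO. The neutrophil marker *Ly6g* was at 0 counts in all 10 libraries. *Cd48*, whose protein was selected against in the sort, was higher in CKO, with 21.6 ± 5.53 CPM in CTL and 49.0 ± 9.15 CPM in CKO (SD, n = 5 each). Its log2 fold change was 1.18 (adjusted p = 0.0264 from the quasi-likelihood F test of edgeR, with the p-values adjusted over all tested genes by Benjamini-Hochberg). With the counts corrected for gene length and GC content its log2 fold change was 1.04, and *Cd48* was not called (adjusted p = 0.171 by edgeR). In that fit 0.0574% of tested genes were called. Without the correction *Cd48* was the only gene called among the 14 of these markers that were tested. *Flt3*, a marker of multipotent progenitors, stood at 123 ± 18.5 and 96.0 ± 8.05 CPM (log2 fold change -0.36, adjusted p = 0.194). The sum hides spread in single myeloid markers. *Itgam* stood at 17.8 ± 6.77 CPM in CTL and 34.6 ± 15.9 CPM in CKO (log2 fold change 0.95, adjusted p = 0.230). *Mpo* ran from 9.11 to 190 CPM in CTL and from 6.18 to 108 CPM in CKO. *Elane* ran from 0.76 to 62.4 CPM in CTL and from 1.48 to 16.4 CPM in CKO. The part of these markers in the results below was not tested. In a mixed RNA sample, fewer cells of a type and less RNA per cell cannot be told apart.

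The deleted gene itself separated 4 of the 5 CKO libraries from all CTL libraries, and 1 library labelled CKO held nearly the control level. In GRCm38, *Cited2* occupies bases 17723218 to 17725674 of chromosome 10, and its annotated exons merge into 1 block. In CTL 1 to CTL 5 it was expressed at 101, 171, 162, 222 and 160.2 CPM (303, 677, 551, 909 and 732 counts). Its expression was 3.80, 4.21, 5.00 and 8.30 CPM in CKO 1, 2, 4 and 5 (16, 17, 17 and 36 counts), and 120.1 CPM in the library labelled CKO 3 (508 counts). The 4 low libraries lay far under every CTL library, whereas the library labelled CKO 3 lay above CTL 1 and under the other CTL libraries. As a share of the CTL mean, the 4 low libraries held 2.33% to 5.08% and the library labelled CKO 3 held 73.6%. The floxed part of the gene is not given in the sources used here, so the remaining counts could not be divided between deleted and retained sequence.

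Over all 10 libraries *Cited2* averaged 163 ± 42.7 CPM in CTL and 28.3 ± 51.3 CPM in CKO (SD, n = 5 each) and did not pass the test across genes (log2 fold change -2.51, standard error (SE) 0.94, 95% interval -4.66 to -0.36, adjusted p = 0.328 by edgeR). A two-sided exact permutation test of log2 CPM gave p = 0.0159 (n = 5 per genotype, smallest possible p = 0.00794). Without the library labelled CKO 3 the log2 fold change was -4.92 (SE 0.27, 95% interval -5.51 to -4.33, adjusted p = 1.82e-06), with 5.33 ± 2.04 CPM in the remaining CKO libraries (SD, n = 4). That library was set aside for its *Cited2* level, so the *Cited2* value without it describes the other libraries and is not independent of the choice. The values of the 7 other members played no part in that choice, and their comparisons are given with and without it.

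**Figure D1:**
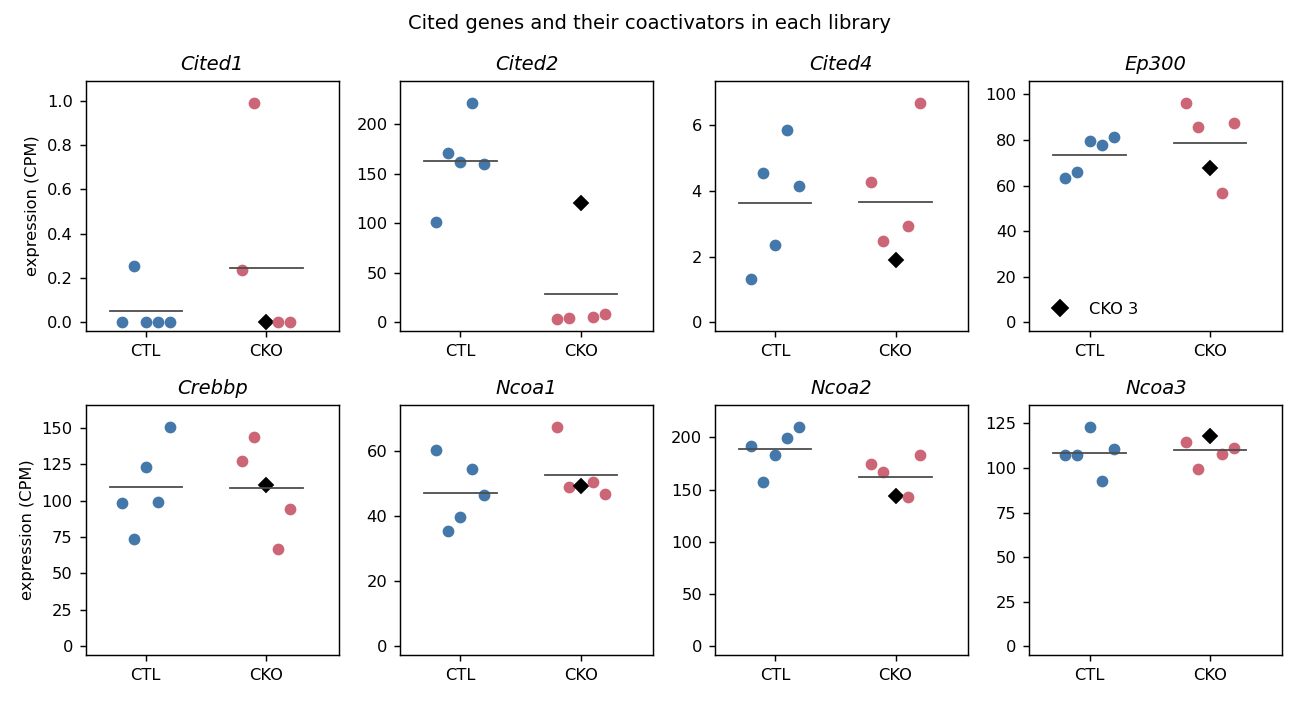
Expression of the 8 members (CPM, linear axes from about 0) in each library, with CTL in blue, CKO in red, the library labelled CKO 3 as a black diamond and the group mean as a line. *Cited2* lies between 3.80 and 8.30 CPM in 4 CKO libraries and at 120.1 CPM in the diamond, while the other members' groups overlap.

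*Cited4*, the paralog with counts in every library, showed no detectable shift, with an interval that leaves a change of 2-fold open. It is a single-exon gene on chromosome 4 from 120666572 to 120667820. It was expressed at 1.34, 4.55, 2.35, 5.85 and 4.16 CPM in CTL 1 to CTL 5, from 4 to 24 counts. In CKO 1 to CKO 5 it was expressed at 4.28, 2.47, 1.89, 2.94 and 6.68 CPM, from 8 to 29 counts. The lowest library was CTL 1, the highest was CKO 5, and the groups overlapped over most of their range. Its coefficient of variation (SD over mean) was 49.3% in CTL and 52.3% in CKO, against 26.2% and 25.8% from counting alone. The means were 3.65 ± 1.80 CPM in CTL and 3.65 ± 1.91 CPM in CKO (SD, n = 5 each). The log2 fold change was -0.01 (SE 0.54, adjusted p = 0.997 by edgeR), with a 95% interval from 0.445-fold to 2.23-fold, and the exact permutation test gave p = 0.960. Without the library labelled CKO 3 it was 0.16 (SE 0.58, adjusted p = 0.946), with an interval from 0.466-fold to 2.68-fold and an exact permutation p of 0.667.

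*Cited1*, on the X chromosome from 102247381 to 102252181, was at or near 0 throughout. It had 1 count in CTL 2, 1 count in CKO 1 and 4 counts in CKO 2, and 0 counts in the other 7 libraries, which allows up to 0.656 to 1.003 CPM there (3 counts of each total, counting error only). It was the only member that did not pass the filter on low counts, so it has no adjusted p, and no fold is given at this depth. The exact permutation test of log2 CPM gave p = 0.722 with all libraries and p = 0.571 without the library labelled CKO 3.

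Per length, *Cited2* was the most highly expressed of the 8 members in CTL and stood near the level of *Cited4* in 4 CKO libraries. Levels of different genes are compared here in RPKM, CPM divided by the deposited gene length in kilobases, and all values in this paragraph are levels. The full length of *Cited2* was used in CKO as well, although the floxed part is not known. Its levels beside *Cited4* and its shares in the low CKO libraries are therefore approximate. *Cited2* stood at 82.9 ± 21.7 RPKM in CTL (SD, n = 5), above 92.1% of tested genes, and *Cited4* at 2.90 ± 1.43 RPKM, above 19.3%. In CKO 1, CKO 2, CKO 4 and CKO 5, *Cited2* stood at 1.93, 2.14, 2.54 and 4.21 RPKM. *Cited4* stood at 3.40, 1.97, 2.34 and 5.31 RPKM in the same libraries. *Cited4* was thus the higher of the pair in CKO 1 and CKO 5 and the lower in CKO 2 and CKO 4, with overlapping counting intervals in each. *Cited2* made up 95.7% to 98.0% of the summed RPKM of the 3 Cited genes in CTL, 97.6% in the library labelled CKO 3, and 34.6% to 52.1% in the other CKO libraries. That sum was 52.5 to 117 RPKM in CTL, 62.5 RPKM in the library labelled CKO 3 and 4.87 to 9.53 RPKM in the other CKO libraries.

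**Figure D2:**
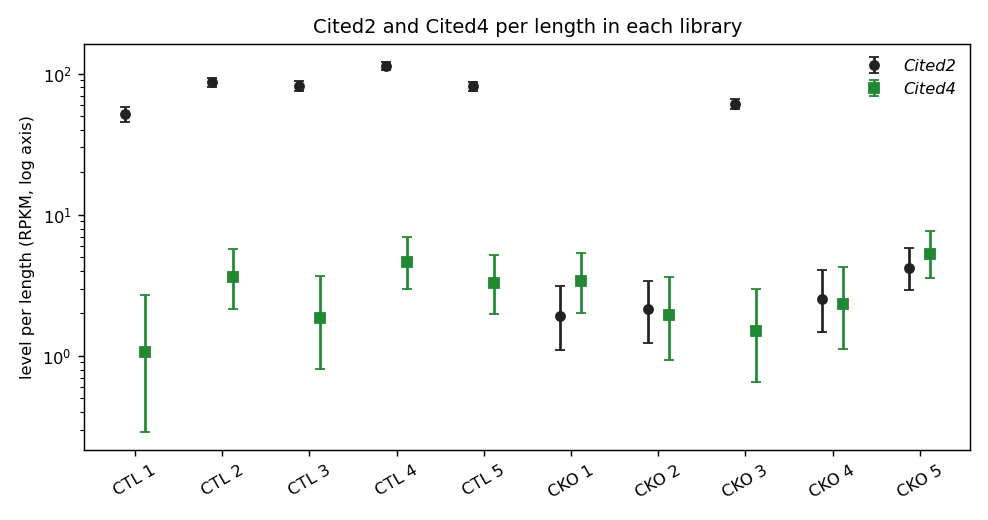
Level per length (RPKM, log axis) of *Cited2* (black circles) and *Cited4* (green squares) in each library, with bars for the exact 95% Poisson interval of the counts. *Cited2* lies far above *Cited4* in CTL and in CKO 3, and at 1.93 to 4.21 RPKM beside *Cited4* in the other 4 CKO libraries.

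Among the coactivators, the order per length in CTL was *Ncoa2* (22.9 ± 2.47 RPKM), *Crebbp* (14.5 ± 3.89), *Ncoa3* (14.4 ± 1.45), *Ep300* (8.42 ± 0.95) and *Ncoa1* (6.45 ± 1.40 RPKM; SD, n = 5 each). *Ncoa2* and *Crebbp*, *Crebbp* and *Ncoa3*, and *Ep300* and *Ncoa1* overlapped between libraries, whereas *Ncoa3* lay above *Ep300* in every CTL library. These levels exceeded those of 31.0% to 59.8% of tested genes. *Ncoa2* was also first in CKO, at 19.8 ± 2.22 RPKM.

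*Ep300*, on chromosome 15 from 81585351 to 81652077, did not pass the test in either direction. It was expressed at 63.2, 66.2, 79.7, 78.0 and 81.2 CPM in CTL 1 to CTL 5 and at 96.3, 85.6, 67.6, 56.7 and 87.6 CPM in CKO 1 to CKO 5. CKO libraries held both the 3 highest values and the lowest. The log2 fold change was 0.10 (SE 0.14, adjusted p = 0.822 by edgeR), with a 95% interval from 0.865-fold to 1.32-fold. Without the library labelled CKO 3 it was 0.15 (adjusted p = 0.762), and leaving out other libraries moved it to between 0.012, without CKO 1, and 0.19, without CKO 4.

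*Crebbp*, on chromosome 16 from 4081328 to 4213997, had nearly equal means and a spread wider than counting gives. It was expressed at 98.3, 73.5, 123, 99.2 and 151 CPM in CTL 1 to CTL 5, and at 127, 144, 111, 67.0 and 94.5 CPM in CKO 1 to CKO 5. The groups overlapped over almost their whole range, with 109.0 ± 29.2 CPM in CTL and 108.6 ± 29.7 CPM in CKO. The log2 fold change was -0.0048 (SE 0.20, adjusted p = 0.994 by edgeR), with a 95% interval from 0.737-fold to 1.35-fold, and without the library labelled CKO 3 it was -0.01 (adjusted p = 0.989). The coefficient of variation of *Crebbp* was 26.8% in CTL and 27.3% in CKO, against 4.88% and 4.74% from counting alone, so its libraries differed by more than depth gives. Its spread beyond counting, as estimated by edgeR, was 22.4%, against a median of 18.9% over all tested genes. It exceeded that of 58.3% of tested genes. For *Ep300* the coefficients of variation were 11.3% in CTL and 20.5% in CKO, against 5.95% and 5.57% from counting.

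The balance of p300 and CBP transcripts did not differ detectably between the genotypes. The ratio of *Ep300* to *Crebbp* RPKM was below 1 in each of the 10 libraries and ran from 0.462 in CTL 5 to 0.795 in CKO 5. On the log2 scale it was -0.75 ± 0.29 in CTL and -0.66 ± 0.28 in CKO (SD, n = 5 each), a difference of 0.09 (two-sided exact permutation p = 0.627). The difference was 0.16 without the library labelled CKO 3 (exact permutation p = 0.444, smallest possible p = 0.0159). Without CTL 5, the library with the lowest ratio, the difference was -0.00082.

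Of the p160 coactivators, *Ncoa2* was the member besides *Cited2* that came nearest to a difference. *Ncoa2*, also known as TIF2 or GRIP1, lies on chromosome 1 from 13139105 to 13374083. It was expressed at 192, 157, 183, 199.9 and 210.3 CPM in CTL 1 to CTL 5, and at 175, 167, 144, 143 and 183 CPM in CKO 1 to CKO 5. CKO values lay mostly under CTL values, and CTL 2 and CTL 3 lay within the CKO range. The means were 188 ± 20.3 and 162 ± 18.2 CPM, with a log2 fold change of -0.21 (SE 0.10, unadjusted p = 0.0420, adjusted p = 0.371 by edgeR) and a 95% interval from 0.748-fold to 0.994-fold. An unadjusted p under 0.05 was reached by 12.9% of all tested genes in either direction. The exact permutation test gave p = 0.0873, and without the library labelled CKO 3 the log2 fold change was -0.17 (unadjusted p = 0.0997, adjusted p = 0.531, exact permutation p = 0.175).

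*Ncoa1* (SRC-1), on chromosome 12 from 4247362 to 4477182, was expressed at 60.2, 35.4, 39.7, 54.6 and 46.4 CPM in CTL 1 to CTL 5 and at 67.5, 49.0, 49.2, 50.6 and 46.8 CPM in CKO 1 to CKO 5. Apart from CKO 1, the CKO values lay close together and inside the CTL range. The log2 fold change was 0.16 (SE 0.16, adjusted p = 0.734 by edgeR; 95% interval 0.874-fold to 1.42-fold), and 0.18 without the library labelled CKO 3 (adjusted p = 0.755). *Ncoa3* (SRC-3 or AIB1), on chromosome 2 from 165992636 to 166073242, was expressed at 107, 107, 123, 92.6 and 111 CPM in CTL 1 to CTL 5 and at 115, 99.7, 118, 108 and 111 CPM in CKO 1 to CKO 5. CKO values lay inside the CTL range, and the interval was the narrowest among the tested members on the log2 scale, from 0.893-fold to 1.17-fold around a log2 fold change of 0.03 (SE 0.09, adjusted p = 0.924). Its log2 fold change was 0.0037 without the library labelled CKO 3 (adjusted p = 0.992). *Ncoa3* shares 154 exon bases with *Sulf2* on the opposite strand, 1.95% of its exons, and use of strand in counting is not given in the sources used here. The 3 p160 genes summed to between 38.1 and 46.6 RPKM in each of the 10 libraries.

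Of the 8 members, 7 passed the filter on low counts and 0 of these were called at an adjusted p under 0.05 and a fold change above 20% with all 10 libraries, where 0.226% of all 14165 tested genes were called. At an unadjusted p under 0.05 there were 2, *Cited2* and *Ncoa2*, both lower in CKO. Over all tested genes 12.9% reached this threshold in either direction, and 7.08% were lower in CKO. DESeq2, which called 2.27% of all tested genes, also called 0 of the members, *Cited4* having no adjusted p there. Without the library labelled CKO 3, *Cited2* alone of the members was called, against 0.292% of 14372 tested genes. *Cited2* was then also the only member whose genotypes did not overlap, as in 5.03% of tested genes. With all libraries every member overlapped between the genotypes, while 3.33% of tested genes did not. A p above the threshold does not show that a member did not change, and the intervals give the sizes that remain possible.

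**Figure D3:**
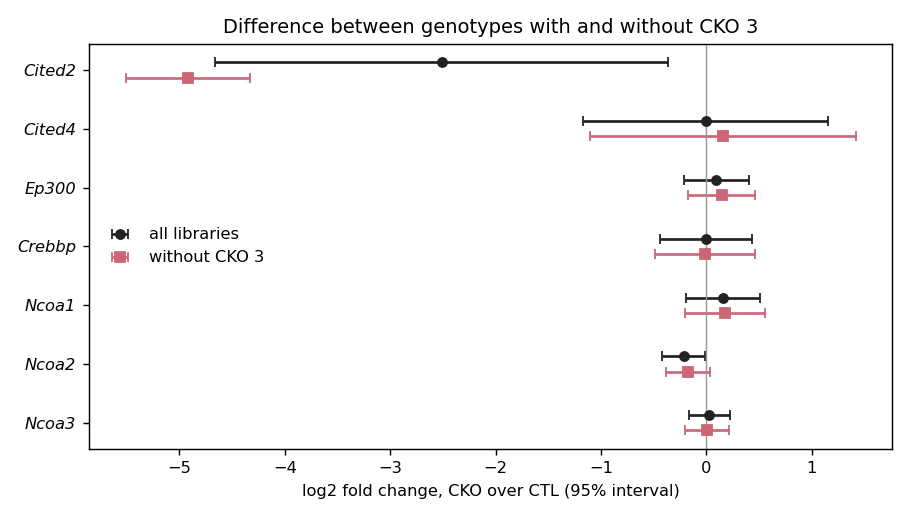
Log2 fold change of CKO over CTL with its 95% interval for the 7 tested members, with all 10 libraries (black circles) and without CKO 3 (red squares). *Cited2* moves from -2.51 to -4.92, while the intervals of *Cited4*, *Ep300*, *Crebbp*, *Ncoa1* and *Ncoa3* hold 0 in both sets and that of *Ncoa2* ends just under 0 with all libraries.

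The libraries also differed in *Xist*, which is expressed from the inactive X chromosome. It was at 1249.9 to 1316 CPM in CTL 2, CTL 4, CKO 2 and CKO 3 and under 20 CPM in the other 6 libraries. *Crebbp* was higher in CKO among the *Xist*-expressing libraries (86.4 CPM in CTL, 127 CPM in CKO; n = 2 each) and lower in CKO among the others (124 and 96.1 CPM; n = 3 each). The difference between these fold changes was 0.93 on the log2 scale (unadjusted p = 0.0245, adjusted p = 0.998 by edgeR), and 4.21% of tested genes reached an unadjusted p under 0.05 in the same test. The test of this split was added after seeing the data, so its p-values describe these libraries only. *Cited4* went the opposite way in the means, from 5.20 to 2.18 CPM and from 2.62 to 4.63 CPM (difference -2.04, unadjusted p = 0.0860). *Cited2* had a difference of 2.96 (unadjusted p = 0.0236, adjusted p = 0.998) with the library labelled CKO 3 as 1 of the 2 *Xist*-expressing CKO libraries, and -0.96 without it. *Ep300*, *Ncoa1* and *Ncoa2* had log2 differences between the genotypes of 0.08 and 0.08, 0.16 and 0.17, and -0.19 and -0.23 in the *Xist*-expressing libraries and in the others, and *Ncoa3* had 0.12 and -0.03 (unadjusted p = 0.411 for the difference between its fold changes). Without the library labelled CKO 3 the difference was 1.07 for *Crebbp* and -1.90 for *Cited4*. That leaves 1 *Xist*-expressing CKO library, whose spread is not known, so only the sizes are given. With *Xist* as a covariate, 0 of the 7 tested members and 0.198% of all tested genes were called.

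The genes around the members were described from 5 lists, and edgeR called 0 genes of any list in all 10 libraries or without the library labelled CKO 3. Over all tested genes 0.226% and 0.292% were called in these comparisons, so 0 calls says little about the lists. Among 18 tested acetyltransferases and their partners related to CBP and p300, the median log2 fold change was -0.01, against 0.01 over all tested genes, and 1 gene was higher and 1 lower at an unadjusted p under 0.05. Those were *Hat1*, which acetylates newly made histone H4 (195 ± 10.3 and 215 ± 7.99 CPM, adjusted p = 0.359), and *Tada3*, a subunit of the SAGA and ATAC complexes (61.7 ± 10.3 and 48.4 ± 4.17 CPM, adjusted p = 0.292). *Kat7*, the acetyltransferase HBO1, stood at 180 ± 18.7 CPM in CTL and 181 ± 21.4 CPM in CKO. Over all tested genes, 5.8% were higher and 7.08% lower at this unadjusted threshold.

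Of 20 tested genes of the p160 coactivator complex, 1 was higher and 4 were lower at an unadjusted p under 0.05. Over all tested genes 5.8% were higher and 7.08% lower. The median log2 fold change of the list was -0.02, against 0.01 over all tested genes. *Flii*, which binds p160 complexes, stood at 182 ± 14.6 CPM in CTL and 148 ± 13.7 CPM in CKO (log2 fold change -0.30, adjusted p = 0.147), and *Calcoco1*, another p160-binding coactivator, at 66.9 ± 7.01 and 51.9 ± 6.87 CPM (-0.36, adjusted p = 0.252). The RNA helicases *Ddx5* and *Ddx17* were the most highly expressed of this list by CPM, with log2 fold changes of -0.05 and 0.26 (adjusted p = 0.852 and 0.512). After the counts were corrected for gene length and GC content by an offset in each library, 1 gene of this list was higher and 0 were lower at the unadjusted threshold (3.21% and 3.8% of all tested genes), and *Flii* had a log2 fold change of -0.11.

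Of 25 transcription factors that bind CITED2 or compete with it for CBP and p300, 16 were tested. Their median log2 fold change was -0.07, against 0.01 over all tested genes. At an unadjusted p under 0.05, 0 were higher and 3 lower, against 5.8% and 7.08% of all tested genes. The smallest p-value of the 5 lists belonged to *Hnf4a*, a nuclear receptor best known in liver, which ranged from 24.4 to 35.0 CPM in CTL and from 6.47 to 16.6 CPM in CKO. All CKO libraries lay below all CTL libraries, as in 1.98% of all tested genes, with the library labelled CKO 3 at 16.3 CPM. Its log2 fold change was -1.24 (SE 0.26, adjusted p = 0.0753 by edgeR) with all libraries, and -1.38 (SE 0.27, adjusted p = 0.0522) without the library labelled CKO 3. The Wald test of DESeq2, which called 2.27% of all tested genes, gave *Hnf4a* an adjusted p of 0.0023. With the offset its log2 fold change was -1.10 (adjusted p = 0.274). *Rela*, the NF-kappaB subunit, stood at 144 ± 6.16 and 125 ± 9.45 CPM (adjusted p = 0.290), *Myc* at 278 ± 30.8 and 233 ± 28.5 CPM (adjusted p = 0.293) and *Trp53* at 238 ± 8.82 and 222 ± 22.0 CPM (adjusted p = 0.621).

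Of 34 tested hematopoietic transcription factors that use CBP and p300, 3 were higher and 4 lower at the unadjusted threshold. These shares were 5.8% and 7.08% over all tested genes. The median log2 fold change was -0.09, against 0.01 over all tested genes. *Tcf3*, which encodes the E2A proteins, stood at 160 ± 16.5 CPM in CTL and 128 ± 9.16 CPM in CKO (log2 fold change -0.31, adjusted p = 0.149), and *Crtc1*, a CREB coactivator, at 76.9 ± 17.4 and 54.4 ± 6.92 CPM (-0.50, adjusted p = 0.203). The AP-1 genes *Fos* and *Jun* had log2 fold changes of -0.04 and -0.08 (adjusted p = 0.927 and 0.812). With the same offset the median of this list was 0.02, and *Tcf3* had a log2 fold change of -0.04.

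Of 30 tested corepressors and histone deacetylases, which counter acetylation, 1 was higher and 3 were lower at the unadjusted threshold. Among all tested genes 5.8% were higher and 7.08% lower. The median log2 fold change was -0.06, against 0.01 over all tested genes. *Ncor1*, the nuclear receptor corepressor, ranged from 214 to 284 CPM in CTL and from 288 to 324 CPM in CKO, above every CTL library as in 1.35% of all tested genes (log2 fold change 0.25, SE 0.08, adjusted p = 0.210). *Hdac5* ranged from 64.6 to 77.0 CPM in CTL and from 32.1 to 57.9 CPM in CKO (-0.51, SE 0.15, adjusted p = 0.165). *Hdac10* stood at 94.9 ± 13.3 and 69.6 ± 10.3 CPM (-0.45, adjusted p = 0.147) and *Hdac2*, a class I deacetylase, at 266 ± 34.2 and 304 ± 21.7 CPM (0.19, adjusted p = 0.388). With the offset *Ncor1*, *Hdac5* and *Hdac10* had log2 fold changes of 0.10, -0.25 and -0.24. In DESeq2, which called 2.27% of all tested genes, 1 gene was called in each of 4 lists, all lower in CKO: *Flii* (adjusted p = 0.0402), *Hnf4a*, *Tcf3* (adjusted p = 0.0481) and *Hdac10* (adjusted p = 0.0406).

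**Figure D4:**
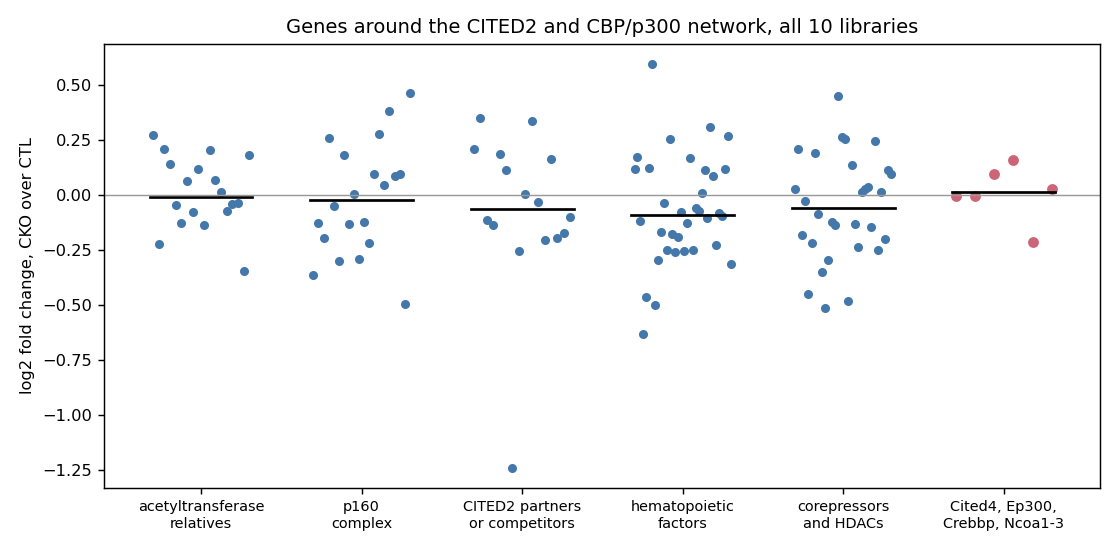
Log2 fold change of CKO over CTL (all 10 libraries) for each tested gene of the 5 lists (blue) and for the 6 tested members other than *Cited2* (red), with the median of each as a black line. The medians of the 5 lists lie between -0.09 and -0.01, and the point near -1.24 is *Hnf4a*.

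The genes whose log2 CPM followed *Cited2* most closely over the 10 libraries, by Pearson's r and as a description, were *Tns2* (r = 0.93, Spearman's rho = 0.89), *Sil1* (0.93 and 0.83) and *Ecm1* (0.93 and 0.79). *Cited2* itself was low in 4 CKO libraries, so r with it includes any difference of a gene between the genotypes. *Tns2*, which encodes a focal adhesion protein, stood at 17.4 to 44.1 CPM in CTL, 3.80 to 6.68 CPM in the 4 low CKO libraries and 12.8 CPM in the library labelled CKO 3 (log2 fold change -2.23, adjusted p = 0.0192 by edgeR). The library labelled CKO 3 lay between the groups for *Tns2*. The genes named for *Cited2* were chosen by their r over the same libraries, that library included. Its place among them is therefore not independent of the choice. *Ecm1*, an extracellular matrix gene, stood at 15.1 to 23.5 CPM in CTL, 5.23 to 9.11 CPM in those 4 libraries and 14.7 CPM in the library labelled CKO 3. For *Ep300* the nearest genes were *Slc4a7* (r = 0.98, rho = 0.92), *Cep85l* (0.94 and 0.87) and *Spn* (0.94 and 0.99), and for *Crebbp* they were *Tbck* (0.93 and 0.83), *Gm19474* (0.92 and 0.82) and *Mdn1* (0.92 and 0.85). Those patterns vary among libraries of both genotypes and include whatever the libraries share in depth or handling.

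Beyond *Cited2*, 41 genes were called without the library labelled CKO 3, 27 higher and 14 lower in CKO. In that library 19 of them (46.3%) lay nearer to the mean of the other CKO libraries than to the CTL mean. When another CKO library was left out instead, it lay nearer to the other CKO libraries in 75.8% to 100% of the 8 to 33 genes called without it. These gene sets differ between the libraries left out, and the difference between the shares was not tested.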

How the data were processed

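The RNA is polyA RNA per the labels. Per the methods of the study, the authors mapped single-ended reads with HISAT2 to GRCm38 (mm10), counted them with Rsubread and deposited the raw counts of each gene symbol with its length. The annotation, strand setting and treatment of reads matching several genes are not given in the sources used here. Samples, which the methods count as animals, were grouped by the genotype in their labels.

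Genes were kept by filterByExpr, libraries normalized by TMM, and genotypes compared with edgeR 4.0.16 in R 4.3.3 (quasi-likelihood F test with robust dispersions, p-values adjusted by Benjamini-Hochberg over all tested genes). Calls needed an adjusted p under 0.05 and a fold change above 20%. A prior count of 2 entered log2 CPM. The ratio and the members' CPM were compared by two-sided exact permutation tests. Alternatives were DESeq2 1.42.0, its size factors in edgeR, limma-voom (limma 3.58.1), other count filters, a replicate block, an offset for gene length and GC content (loess, span 50%), *Xist* as a covariate, and each library left out. An *Xist*-split interaction test, with and without CKO 3, was added after seeing the data. Promoter windows came from RefSeq (all 8 members matched), gene positions from GENCODE. Of 26146 symbols, 700 had no GC content and were left out of that offset. The scripts were tested on simulated data. The members, lists and tests were chosen with earlier results of these data known.

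Named genes were the 8 members, from each pathway list every called gene, the 2 tested genes with the smallest p and the 2 with the highest CPM, and for *Cited2*, *Ep300* and *Crebbp* the 3 tested genes with the highest Pearson's r. Totals of 3058690 to 4548795 counts limit genes with few counts. Intervals of counts (95%, exact Poisson) and floors cover counting error only.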

Additional observations from a re-analysis of the deposited data

Results flagged for a closer look

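Within each group of 5 libraries, the highest or lowest library of a member was singled out by its gap to the nearest other library. The gap had to exceed a share of 0.71 of the whole range (Dixon's critical value). Chance reaches this in about 1 in 20 groups of normally distributed values. Each member was screened in both genotypes, so a flag can arise by chance. *Cited2* in the library labelled CKO 3 stood out at 120 CPM, with a gap of 0.961 of the range. *Ncoa1* in CKO 1 stood out at 67.5 CPM, with a gap of 0.817 of the range, and without that library the log2 fold change of *Ncoa1* was 0.048. *Cited1* stood out at 0.253 CPM in CTL 2, which is 1 count, and at 0.99 CPM in CKO 2, which is 4 counts. Most libraries held 0 counts of *Cited1*, so the stated rate does not hold for its flags.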

How the results depend on the processing

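Called genes (17 higher and 15 lower in CKO) numbered 147 and 175 in DESeq2, 256 and 295 in DESeq2 without CKO 3, and 5 and 3 with the offset for gene length and GC content; leaving out each library in turn gave 5 to 27 higher and 3 to 18 lower. *Cited2* passed the test with limma-voom (log2 fold change -3.99) and without CKO 3 (-4.92 in edgeR, -4.93 in DESeq2, -4.76 with the offset), with a range of -4.92 to -2.23 over libraries left out. Of the other tested members 0 were called under any alternative, but 3 with values near 0 changed sign: *Cited4* with DESeq2's size factors (5.77e-05), with the replicate block (0.0023), with the offset (0.0742), and without CKO 3 with the offset (0.206) or in DESeq2 (0.162); *Crebbp* in DESeq2 (0.0011), with its size factors (0.0013) and with at least 10 counts in every sample (0.0088); and *Ncoa3* with the offset (-0.0204) and with it without CKO 3 (-0.0206). Over libraries left out *Cited4* ran from -0.35 to 0.22, *Ep300* from 0.012 to 0.19, *Ncoa1* from 0.048 to 0.25, *Ncoa2* from -0.28 to -0.17, *Crebbp* from -0.13 to 0.14, and *Ncoa3* from -0.026 to 0.076. The difference between the genotypes in the log2 ratio of *Ep300* to *Crebbp* ran from -0.00082 to 0.18. *Ncoa2* kept its sign throughout and was -0.34 with the offset. With no filter *Cited1* was not called either (adjusted p = 0.732), and with at least 10 counts in every sample *Cited4* was not tested by edgeR. Causes were not tested.

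Replicate numbers appear in both genotypes, but deviations of same-numbered libraries correlated at -0.095 to 0.21 and only CTL 5 of the CTL libraries matched its own number best, so the numbers were not used as pairs. With the replicate block 15 genes were higher and 9 lower, and *Cited2* had -3.74 (adjusted p = 0.284).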
